A study of Mus musculus with 7 samples.

Results

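The 7 duodenal libraries of this series fell into groups of 3 and 4 by their level of S100g, the gene of calbindin-D9k, a cytosolic protein that carries calcium across the absorptive cell. A library was placed in the high group when its S100g level was 100 RPKM or more (reads scaled for gene length and for the library's mapped reads) and in the low group otherwise. Of the 7 libraries, 3 were high and 4 were low. The high group held 2 Nlrc4-T337S libraries (replicates 3 and 4) and 1 wild-type library (replicate 3), and the low group held 2 Nlrc4-T337S libraries and 2 wild-type libraries (replicates 1 and 2 of each). The gap was wide: the library just under the threshold stood at 19.8 RPKM and the library just over it at 1346 RPKM. The groups were thus selected on S100g measured in these same libraries, so the high and low groups are described across genes and given no test. Tests were run only for genotype and for its interaction with the split, which the rule did not use.

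The series profiled RNA of duodenal epithelium, collected as scrapings, from C57BL/6 mice 6 weeks old. The mice were wild type or carried Nlrc4-T337S, an altered form of an inflammasome protein that senses bacterial products in gut epithelium. The labels name no treatment, diet, sex, litter or collection day, and no source states outright that the libraries are separate animals, so the p-values below measure only the spread between these libraries. A scraping holds every cell type of the mucosa, and in such bulk RNA fewer cells of a type and less RNA per cell cannot be told apart.

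The duodenum lies next to the stomach and is a main site of active calcium uptake and of iron uptake. Calcium enters the enterocyte through the channel TRPV6, is ferried by calbindin-D9k and leaves through the pump of Atp2b1, a route driven by vitamin D and its receptor. Ferric iron is reduced at the brush border by the reductase of Cybrd1, enters through the transporter of Slc11a2, is stored in ferritin, and leaves through ferroportin, the product of Slc40a1. Levels of several of these transcripts are known to be steepest at the start of the duodenum and to respond to iron, oxygen and vitamin D.

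The split ran along other recorded features of the libraries, whose part in the results cannot be told apart from it. The numbers in the library titles, whose meaning is not stated, were odd in the 4 low libraries and even in the 3 high ones, and the low libraries come first in the submitters' sample order. Libraries had 45032119 to 95732587 quality-passing reads. Mapped shares were 88.3% to 97.1% in the low libraries and 84.2% to 90.8% in the high ones. A single read per kilobase was worth 0.0124 to 0.0251 RPKM, so levels of a few hundredths rest on a handful of reads. Markers of absorptive epithelium were abundant in every library; Epcam, the epithelial adhesion protein, stood at 790, 831, 838 and 842 RPKM in the low group and 646, 837 and 826 in the high group.

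Promoter sequence from RefSeq (build GRCm38.p6) is shown for 4 of the marker genes as the 250 bases before each start site, since these genes moved together. Capitals mark matches, on either strand, to AGGTCA (a nuclear receptor half-site, written TGACCT on the other strand), CAAAGTCCA (a site of the HNF4 type) and ACGTG or GCGTG (the core bound by hypoxia-inducible factors). These motifs do not overlap each other in the printed stretches. The coordinates are chrX:162964600-162964849 for S100g, chr6:41636406-41636655 for Trpv6, chr2:71117804-71118053 for Cybrd1 and chr1:87124704-87124953 for Akp3, with S100g and Trpv6 on the minus strand and the others on the plus strand.
S100g: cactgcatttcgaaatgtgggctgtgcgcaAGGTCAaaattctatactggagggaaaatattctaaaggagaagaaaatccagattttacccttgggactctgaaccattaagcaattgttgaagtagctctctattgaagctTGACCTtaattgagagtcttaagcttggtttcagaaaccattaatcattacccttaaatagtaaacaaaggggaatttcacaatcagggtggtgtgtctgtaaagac
Trpv6: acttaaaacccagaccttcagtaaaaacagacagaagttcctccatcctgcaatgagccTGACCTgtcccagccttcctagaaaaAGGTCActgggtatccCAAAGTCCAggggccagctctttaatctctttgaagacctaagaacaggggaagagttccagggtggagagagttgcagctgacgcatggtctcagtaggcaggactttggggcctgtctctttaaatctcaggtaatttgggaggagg
Cybrd1: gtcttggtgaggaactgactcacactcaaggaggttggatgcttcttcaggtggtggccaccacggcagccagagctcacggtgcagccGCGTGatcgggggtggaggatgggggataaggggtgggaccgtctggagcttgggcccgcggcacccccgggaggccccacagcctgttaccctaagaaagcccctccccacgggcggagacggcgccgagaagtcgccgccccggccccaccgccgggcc
Akp3: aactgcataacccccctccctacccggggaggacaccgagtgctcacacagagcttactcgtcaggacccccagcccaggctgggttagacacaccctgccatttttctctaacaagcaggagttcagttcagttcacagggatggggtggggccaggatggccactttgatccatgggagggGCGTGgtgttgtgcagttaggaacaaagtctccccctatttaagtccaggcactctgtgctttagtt

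S100g and Trpv6 each held 2 matches to AGGTCA, and Trpv6 also held 1 to CAAAGTCCA. Cybrd1 and Akp3 each held 1 match to GCGTG and none to the other motifs. Over the 8475 genes compared that had such a stretch, 11.2% held AGGTCA, 0.472% held CAAAGTCCA and 56.7% held ACGTG or GCGTG. Among the genes described below as higher in the high libraries, 111 had a stretch, of which 18.0% held AGGTCA, 2.70% held CAAAGTCCA and 47.7% held ACGTG or GCGTG. Among the lower genes, 74 had a stretch, of which 10.8%, 1.35% and 39.2% held these motifs. TATAAA, the TATA box, was in 6.76% of all stretches, 16.2% of those of the higher and 20.3% of those of the lower genes. A match describes letters in this window and was not tested for binding.

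Genes were compared where their mean over the libraries was at least 0.5 RPKM, which left 10987 of the 22987 genes in the table. The difference is the high-minus-low coefficient on log2(RPKM + 0.5), with genotype as a term, and its standard error (SE) is over the 7 libraries. A gene is called higher or lower here when it differed at least 1.5-fold on that scale and, within each genotype, every high library lay beyond every low library. By this rule 142 genes (1.29% of those compared) were higher in the high libraries and 97 (0.883%) were lower. These shares are the ones to set beside the counts of called list members below. With no size threshold, 784 (7.14%) and 1103 were separated within both genotypes. The 97 became 272 without Nlrc4-T337S replicate 1, 233 without replicate 4 and 180 without wild-type replicate 3, while the 142 stayed between 137 and 212. The higher differences were the larger ones. Of the 142, 62 were at least 2-fold, 18 at least 4-fold and 5 at least 16-fold; of the 97, 18 were at least 2-fold and 0 at least 4-fold. The rule had already separated the called genes within each genotype. Of these, 111 of the 142 and 64 of the 97 also did not overlap between groups across all 7 libraries regardless of genotype. No share over all genes is given beside these counts, and the rule itself favours such genes, so they describe the called genes only. The median difference over all genes was -0.04 and its SD across genes was 0.27. The 5 genes at or over 16-fold were the calcium and iron genes S100g, Trpv6, Slc40a1 and Cybrd1 and the phosphatase gene Akp3, which are the markers of the split.

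Of the calcium route genes, S100g made the groups, Trpv6 passed the filter only through the high libraries, and the pump gene Atp2b1 was higher. S100g (chromosome X, 159399924 to 159402531, mm9 as for all gene positions below) stood at 12.6 and 11.2 RPKM in the low Nlrc4-T337S libraries, 19.2 and 19.8 in the low wild-type libraries, 2395 and 1346 in the high Nlrc4-T337S libraries and 2376 in the high wild-type library. Its mean was 15.7 ± 4.42 RPKM in the low group (SD, n = 4) and 2039 ± 600 in the high group (SD, n = 3), a log2 difference of 7.06 (SE 0.19). This gene made the groups, so its gap is the rule itself. Trpv6 (chromosome 6, 41570620 to 41586404), the apical calcium channel, was listed at 0 in the low Nlrc4-T337S libraries and at 0.0129 and 0.0148 RPKM in the low wild-type libraries, about the worth of a read per kilobase. In the high libraries it reached 11.7 and 6.53 RPKM for Nlrc4-T337S and 11.2 for wild type. The channel transcript was thus at the limit of detection in all 4 low libraries and well above it in all 3 high ones. No fold is given against a group listed at or near 0, and its log2 difference of 4.33 (SE 0.19) depends on the added 0.5.

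Atp2b1 (chromosome 10, 98377786 to 98488777), the plasma membrane pump that moves calcium to the blood side, stood at 26.2 and 17.5 RPKM in the low Nlrc4-T337S libraries, 22.7 and 28.9 in low wild type, 79.5 and 62.5 in high Nlrc4-T337S and 82.2 in high wild type. The groups did not overlap, and the log2 difference was 1.68 (SE 0.16). Vdr, the vitamin D receptor, stood at 35.1, 41.1, 42.7 and 52.1 RPKM in the low libraries and 78.0, 63.6 and 83.7 in the high ones, again without overlap (0.86, SE 0.12). Of 9 members of the calcium and vitamin D list that were compared, 4 were higher and 0 lower, beside 1.29% and 0.883% of all genes. The median difference was 0.45 against -0.04 over all genes. Of these 4, S100g made the groups and Trpv6 passed the filter only through the high libraries. Without these markers, a choice made after seeing the data, 2 of 7 were higher and the median was 0.17. The other 5 were neither: Cldn2 and Cldn15, tight junction claudins that form pores for small cations, differed by 0.45 and 0.14, Cldn12 by -0.06, the vitamin D receptor's partner Rxra by 0.17 and Pdia3 by -0.06. Another 7 listed genes lay below the expression filter. Among these, Cyp24a1, the vitamin D-degrading enzyme that is a classical target of the receptor, was at 0 to 0.00436 RPKM in every library, and Trpv5, the kidney relative of Trpv6, was at 0 in the low libraries and 0.0125 to 0.0200 in the high ones. Without a genotype term the list median was 0.22, and it was 0.24 without Nlrc4-T337S replicate 1 and 0.74 without replicate 2.

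**Figure D1:**
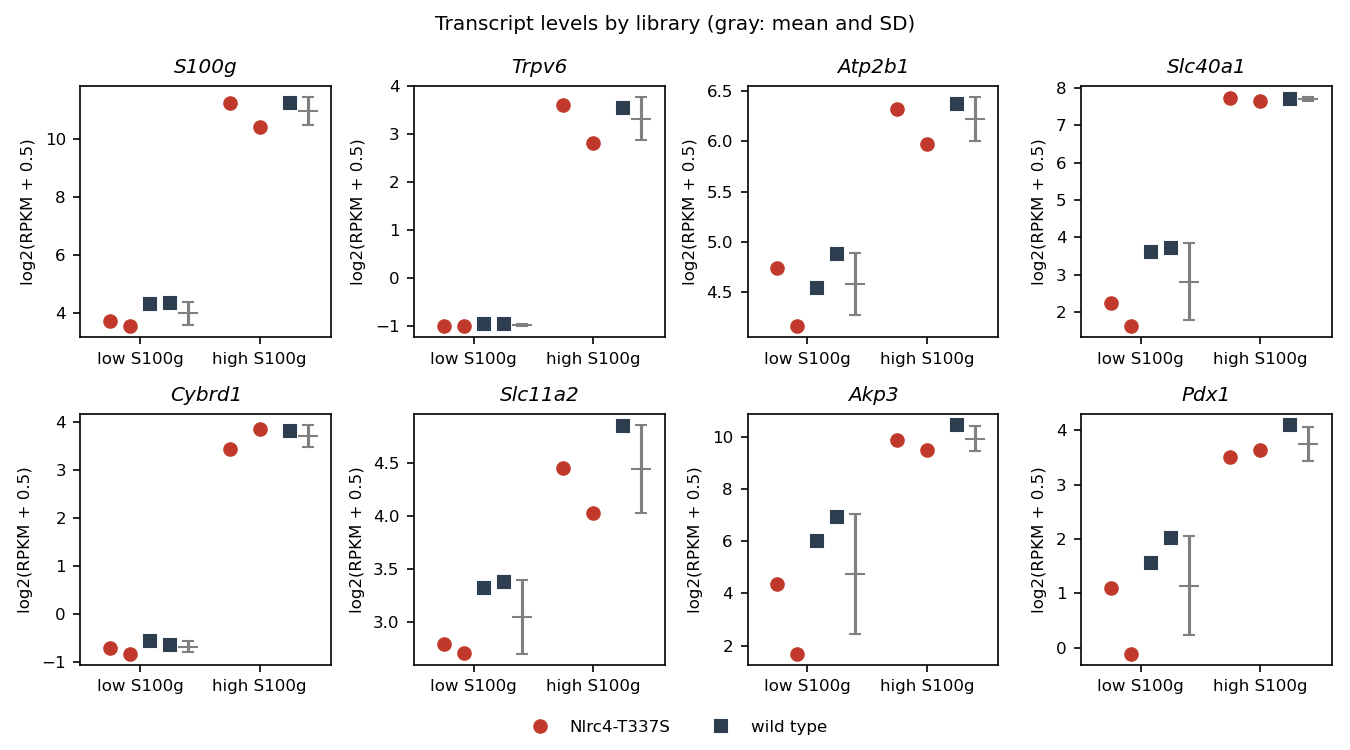
Level of 8 transcripts in each library on a log2(RPKM + 0.5) axis, low group left and high group right in each panel; red circles are Nlrc4-T337S, dark squares wild type, and gray bars the group mean and SD. In each panel every high library lies above every low library, and in every panel but that of Atp2b1 the low wild-type libraries lie above the low Nlrc4-T337S libraries. For Trpv6 the low libraries are at the limit of detection and for Cybrd1 near it, so their order there rests on few reads.

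Of the 14 iron genes compared, 8 were higher and 0 lower, beside 1.29% and 0.883% of all genes. The higher ones included the apical reductase and importer, the ferritin heavy chain and the exporter. Among them, Slc40a1 and Cybrd1 are markers of the split, and Cybrd1 passed the filter only through the high libraries. Slc40a1 (chromosome 1, 45964915 to 45982439), the exporter ferroportin, stood at 4.28 and 2.61 RPKM in the low Nlrc4-T337S libraries, 11.8 and 12.8 in low wild type, 214 and 200 in high Nlrc4-T337S and 208 in high wild type. Its 3 high libraries were nearly level, while its low libraries fell into a lower Nlrc4-T337S pair and a higher wild-type pair. The log2 difference was 5.06 (SE 0.33), made up of 5.75 within Nlrc4-T337S and 4.03 within wild type. Cybrd1 (chromosome 2, 70955980 to 70980983), the duodenal ferric reductase, stood at 0.118 and 0.0676 RPKM in low Nlrc4-T337S, 0.184 and 0.145 in low wild type, 10.4 and 14.0 in high Nlrc4-T337S and 13.6 in high wild type. It was near the detection limit in the low group and above 10 RPKM in every high library, a log2 difference of 4.41 (SE 0.13) that was 4.41 within each genotype.

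Slc11a2 (chromosome 15, 100218329 to 100255503), the apical divalent metal transporter DMT1, stood at 6.44 and 6.03 RPKM in low Nlrc4-T337S, 9.52 and 9.90 in low wild type, 21.4 and 15.8 in high Nlrc4-T337S and 28.5 in high wild type. Its log2 difference was 1.49 (SE 0.12) and the groups did not overlap. Fth1, the ferritin heavy chain that stores iron, stood at 651, 794, 1169 and 1323 RPKM in the low libraries and 2720, 2659 and 3408 in the high ones (1.72, SE 0.15); processed copies of this gene exist, so its share of reads is uncertain. Slc46a1, a folate and haem transporter of the apical membrane, stood at 136 to 220 RPKM in the low group and 242 to 334 in the high group (0.88, SE 0.14).

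Regulators of iron handling were higher by smaller amounts. Epas1, which encodes the oxygen-sensing factor HIF-2 alpha, stood at 5.01, 4.39, 6.59 and 8.34 RPKM in the low libraries and 10.7, 12.1 and 11.8 in the high ones (0.97, SE 0.15). Ireb2, an iron-sensing RNA-binding protein that governs ferritin and transferrin receptor RNA, differed by 0.73 (SE 0.13), and the metal importer gene Slc39a14 by 0.70 (SE 0.12). Neither pair of groups overlapped. The median over the 14 iron genes was 0.72. Without the markers Slc40a1 and Cybrd1, the latter having passed the filter only through the high libraries, 6 of 12 were higher and the median was 0.60.

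The 6 iron genes that were neither included the ferroxidase that works beside ferroportin. Heph, which encodes that ferroxidase, stood at 133, 100, 103 and 104 RPKM in the low libraries and 104, 112 and 122 in the high ones (0.03, SE 0.13). The groups overlapped. The ferritin light chain gene Ftl1 differed by 0.16 (SE 0.13) and the haem-degrading Hmox1 by -0.13. Ankrd37, counted both here and in the hypoxia list, differed by 0.51. The transferrin receptor gene Tfrc differed by -0.43 (SE 0.16) and Aco1, which encodes the other iron-sensing RNA-binding protein, by -0.30 (SE 0.09). Hamp, the gene of the iron hormone hepcidin, lay below the filter at 0 to 0.183 RPKM. Ncoa4, which delivers ferritin for breakdown and is outside the lists, was chosen after its values were seen; it stood at 73.4 to 119 RPKM in the low libraries and 294 to 415 in the high ones (1.83, SE 0.13).

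In the hypoxia list, which holds targets of the factors bound at ACGTG or GCGTG, 0 of 12 genes were higher or lower, with a median of -0.08. Its most shifted members were Ndrg1, at -0.63 (SE 0.23), whose libraries overlapped, and Ankrd37. Car9, a carbonic anhydrase gene known as a target of hypoxia-inducible factors but counted with the bicarbonate genes, was higher (1.17, SE 0.17).

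Other metal and mineral genes were little different, apart from the alkaline phosphatases and a manganese exporter. Akp3 (chromosome 1, 89021583 to 89024487), the alkaline phosphatase typical of mouse duodenum, stood at 19.9 and 2.73 RPKM in low Nlrc4-T337S, 64.3 and 121 in low wild type, 950 and 721 in high Nlrc4-T337S and 1413 in high wild type. On the log2(RPKM + 0.5) scale its low libraries spanned a wider range than those of any other of the 5 markers. The log2 difference was 5.60 (SE 0.72), with 6.67 within Nlrc4-T337S and 3.99 within wild type. Alpi (chromosome 1, 88994579 to 88998181), its neighbour and close copy, stood at 406, 365, 441 and 628 RPKM in the low libraries and 1130, 964 and 1268 in the high ones (1.37, SE 0.15). Reads shared between such copies could be divided either way, so their separate levels are uncertain. Of 7 phosphate and phosphatase genes compared, these 2 were higher and 0 lower, with a median of 0.18 (0.10 without Akp3; 0.10, 0.12 and 0.11 without Nlrc4-T337S replicates 1, 3 and 4). The phosphate transporter genes Slc20a1, Slc20a2 and Slc34a2 differed by 0.18, 0.02 and -0.41.

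Slc30a10, the gene of a manganese exporter, stood at 8.89, 4.95, 9.84 and 12.5 RPKM in the low libraries and 47.5, 36.0 and 41.9 in the high ones (2.28, SE 0.23). It was the 1 called member of 11 in the zinc, copper and magnesium list, whose median was 0.10. The zinc importer gene Slc39a4 differed by 0.33, the copper importer gene Slc31a1 by 0.22 and the metallothionein gene Mt1 by -0.13, all with overlapping groups.

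Most bile acid genes were called neither higher nor lower. The ileal uptake and feedback genes were low in both groups. The apical bile acid transporter gene Slc10a2 was at 0.743 to 1.51 RPKM in the low libraries and 0.332 to 0.727 in the high ones, a log2 difference of -0.56 (SE 0.21). Its groups did not overlap, with the low libraries above the high ones, and the difference did not reach 1.5-fold. Fabp6, the ileal bile acid carrier, was under 0.1 RPKM throughout at 0.0243 to 0.0987, and Fgf15, the ileal hormone that restrains bile acid synthesis, was at 0 in all but wild-type replicate 2, at 0.0160. Of 11 genes compared, 3 were higher and 0 lower, with a median of 0.12, or 0.06 and 0.04 without Nlrc4-T337S replicates 2 and 3 in turn. Nr0b2, the small heterodimer partner induced by the bile acid receptor, stood at 0.285 and 0.393 RPKM in low Nlrc4-T337S, 1.36 and 2.07 in low wild type, 2.42 and 2.70 in high Nlrc4-T337S and 5.84 in high wild type (1.74, SE 0.15). Each genotype had its own step, at different levels.

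Ephx1, an epoxide hydrolase, stood at 4.04 to 9.39 RPKM in the low group and 8.69 to 20.3 in the high group (1.30, SE 0.22), and Abcc3, a basolateral exporter of conjugated bile acids, at 6.69 to 11.1 and 10.4 to 17.2 (0.69, SE 0.19; 0.45 without Nlrc4-T337S replicate 3). Both overlapped when genotype was ignored. The basolateral exporter subunits Slc51a and Slc51b differed by 0.12 and -0.03, and Nr1h4, the bile acid receptor FXR, by 0.43 (SE 0.20) with overlap. The conjugating enzyme Baat, at 0.815 to 0.913 RPKM in the low libraries and 0.441 to 0.578 in the high ones, differed by -0.44 (SE 0.12), without reaching 1.5-fold.

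Sugar genes mostly did not follow the split. The sodium-glucose cotransporter Slc5a1 stood at 1310 to 1512 RPKM in the low libraries and 1266 to 1548 in the high ones (-0.01, SE 0.12), the basolateral glucose carrier Slc2a2 differed by 0.02 (SE 0.11), and the fructose carrier Slc2a5 by 0.28 (SE 0.15). Of 20 genes compared, 0 were higher and 2 lower, with a median of -0.10, which was -0.06, -0.02 and -0.19 without Nlrc4-T337S replicate 2, Nlrc4-T337S replicate 3 and wild-type replicate 3 in turn. Sis, the brush-border sucrase-isomaltase, stood at 1989, 1542, 1232 and 1206 RPKM in the low libraries and 963, 940 and 880 in the high ones (-0.72, SE 0.15). Slc5a4b, a member of the glucose cotransporter family, stood at 135, 155, 99.2 and 84.3 RPKM against 71.5, 78.9 and 56.2 (-0.84, SE 0.11). Neither gene's groups overlapped, although the low Nlrc4-T337S libraries stood above the low wild-type ones. Slc5a4a, a close copy of Slc5a4b, differed by -0.40 (SE 0.12), and reads may be shared between the pair. The other disaccharidases did not follow Sis: lactase (Lct) differed by 0.04, maltase-glucoamylase (Mgam) by 0.08 and trehalase (Treh) by 0.22. Khk, the fructose kinase, differed by -0.22.

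Peptide digestion and uptake leaned the other way from calcium and iron. Slc15a1, the peptide transporter PEPT1, stood at 405, 379, 383 and 386 RPKM in the low libraries and 217, 251 and 243 in the high ones (-0.71, SE 0.10). The 4 low libraries lay within a narrow band, regardless of genotype, and no high library came near it. The brush-border peptidase Enpep stood at 628, 535, 513 and 452 RPKM against 299.7, 309 and 334 (-0.77, SE 0.13), and Dpp4, which trims dipeptides, at 305, 244, 244 and 234 against 166, 178 and 164 (-0.62, SE 0.11). Of 21 genes compared, 3 were lower and 1 higher, beside 0.883% and 1.29% of all genes. The median was -0.26, against -0.04 over all genes, and 19 of the 21 differences were below 0. This lean was not particular to the list. In the sugar, enterocyte, fat and cholesterol synthesis lists, 12 of 20, 16 of 21, 22 of 26 and 18 of 19 differences were below 0.

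The member of that list that was higher, Tmprss15, encodes enteropeptidase, the duodenal protease that activates trypsinogen. It stood at 147, 48.6, 46.5 and 81.8 RPKM in the low libraries and 154, 147 and 150 in the high ones (1.01, SE 0.36). The high libraries were level, low Nlrc4-T337S replicate 1 reached their range, and without replicate 2 the difference was 0.65. None of the following carriers of free amino acids was called. Slc6a19, the main neutral amino acid carrier, differed by 0.08, Slc7a9 by -0.10, its partner Slc3a1 by -0.50 and Slc7a7 by -0.26. Meprin alpha (Mep1a), a brush-border metalloprotease in the enterocyte list, stood at 60.5, 61.0, 74.1 and 64.8 RPKM against 19.0, 31.8 and 38.1 (-1.11, SE 0.18). Lap3 and Xpnpep2, aminopeptidase genes outside the lists and chosen after their values were seen, differed by -0.97 (SE 0.13) and -0.93 (SE 0.12).

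Fat absorption held a single large positive difference among many small negative ones. Scarb1 (chromosome 5, 125757457 to 125821464), the scavenger receptor SR-BI that takes up cholesterol and carotenoids, stood at 1.46, 1.40, 1.83 and 2.50 RPKM in the low libraries and 13.1, 12.9 and 9.53 in the high ones (2.45, SE 0.19), with no overlap. Cd36, a fatty acid receptor of the same protein family, stood at 69.6 and 65.2 RPKM in low Nlrc4-T337S, 46.4 and 54.0 in low wild type, 35.8 and 55.5 in high Nlrc4-T337S and 26.4 in high wild type (-0.72, SE 0.16). Its groups overlapped across genotypes and separated only within them. Of 26 genes compared, Scarb1 was higher and Cd36 lower, 22 differences were below 0 and the median was -0.18 (-0.11 without Nlrc4-T337S replicate 3). The fatty acid binding proteins Fabp1 and Fabp2 differed by -0.41 (SE 0.17) and -0.58 (SE 0.15), the apolipoproteins Apoa1 and Apob by -0.34 and -0.29, and the sterol carrier Npc1l1 by 0.14. None of these reached 1.5-fold.

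In related lipid lists, Stard4, a sterol carrier, was the 1 lower gene (-0.68, SE 0.13) of 19 in cholesterol synthesis, where 18 of 19 differences were below 0 and the median was -0.36. Elovl6, a fatty acid elongase, was the 1 higher gene of 10 in fatty acid synthesis, at 13.4, 13.9, 13.4 and 16.9 RPKM in the low libraries and 30.1, 28.5 and 30.2 in the high ones (1.04, SE 0.10). Of 20 PPAR-alpha targets and fatty acid oxidation genes, Cyp4a10 (1.75), Cpt1a (0.85) and Ucp2 (0.68, and 0.43 without Nlrc4-T337S replicate 1) were higher and 0 were lower. Enpp7, the alkaline sphingomyelinase that digests dietary sphingomyelin, stood at 140, 188, 129 and 101 RPKM in the low libraries and 44.7, 49.7 and 48.6 in the high ones (-1.55, SE 0.17), among the largest of the lower genes. In the retinoid list Aldh1a1 was lower (-0.71, SE 0.22; -0.42 without Nlrc4-T337S replicate 4), 1 of 12, and in the xenobiotic list Gsta4 was higher (0.95, SE 0.24) and the efflux pump gene Abcb1a lower (-0.79, SE 0.13), of 26.

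**Figure D2:**
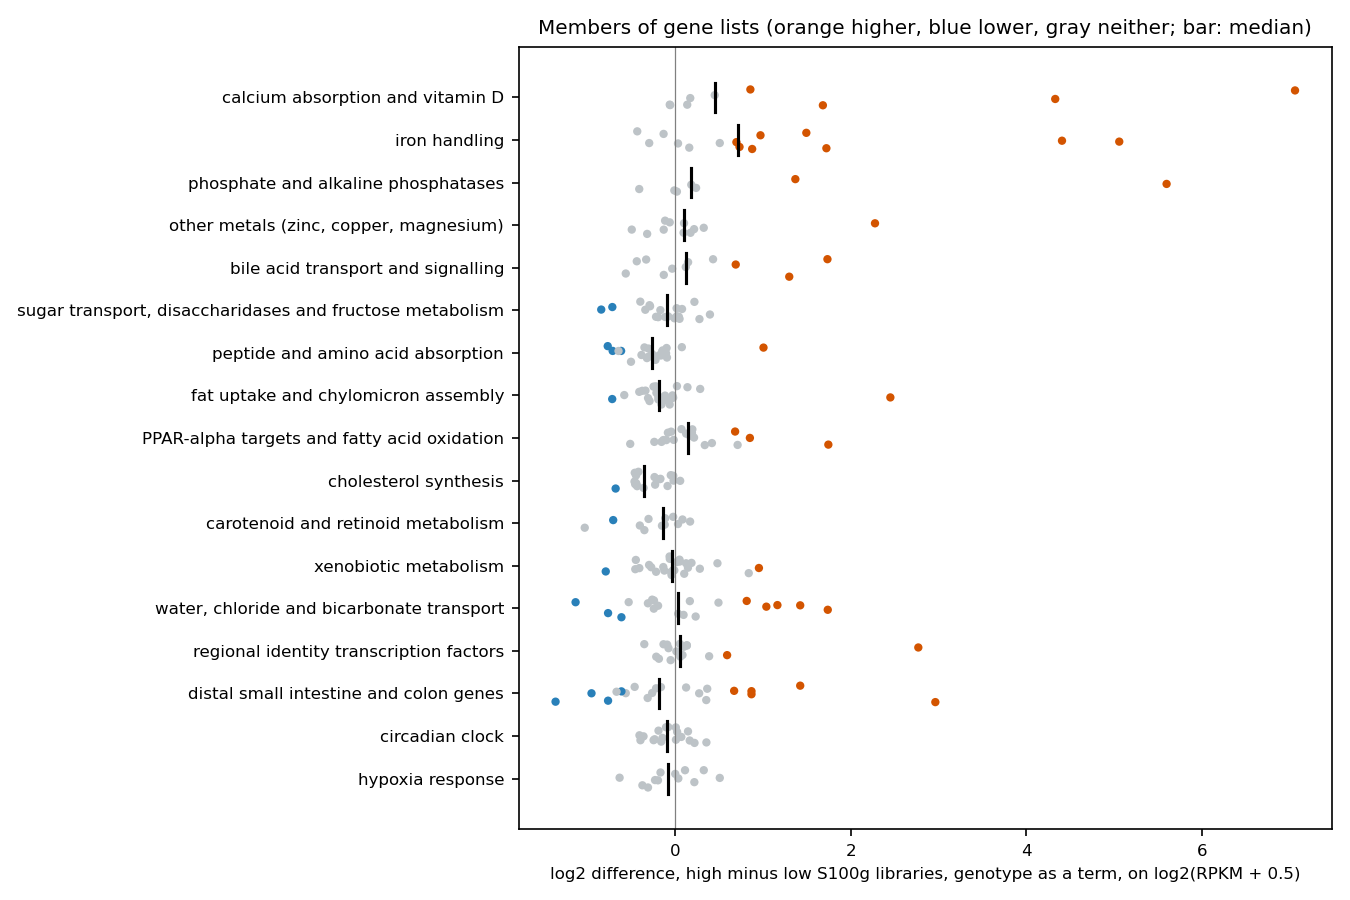
High-minus-low difference on the log2(RPKM + 0.5) scale for each compared member of 17 gene lists; orange points were higher and blue points lower by the 1.5-fold separation rule, gray points neither, and black bars are list medians. The calcium and iron medians, 0.45 and 0.72, stand furthest to the right, and the cholesterol synthesis and amino acid medians, -0.36 and -0.26, furthest to the left.

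Regional identity factors were level except for Pdx1 and Onecut2. Pdx1 (chromosome 5, 148081535 to 148089584), the homeodomain factor of pancreas and proximal duodenum, stood at 1.66 and 0.430 RPKM in low Nlrc4-T337S, 2.44 and 3.53 in low wild type, 10.9 and 12.0 in high Nlrc4-T337S and 16.6 in high wild type (2.77, SE 0.30). It was detected in every library and was lowest in Nlrc4-T337S replicate 2, the library that was also lowest for Akp3, Slc40a1 and Cybrd1. Onecut2 stood at 3.55 to 5.43 RPKM in the low libraries and 5.75 to 6.90 in the high ones (0.59, SE 0.15). Of 17 such factors compared, these 2 were higher and 0 lower, with a median of 0.05.

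Gata4, the factor that separates jejunum and duodenum from ileum, and the intestinal factor Cdx2 were chosen after their values were seen. They differed by 0.13 (SE 0.13) and -0.18 (SE 0.14). The list of distal small intestinal and colonic genes was mixed, with 5 of 20 higher and 4 lower, beside 1.29% and 0.883% of all genes. Slc37a2, an antiporter of sugar phosphates, stood at 3.52, 1.15, 4.15 and 6.38 RPKM in the low libraries and 23.8, 17.8 and 40.7 in the high ones (2.96, SE 0.30). Aqp8, a water channel, stood at 0.229 to 0.406 RPKM against 0.852 to 3.38 (1.43, SE 0.24), and passed the expression filter only through the high libraries. On the lower side, Slc5a8, a sodium-coupled carrier of short-chain acids, stood at 2.37, 1.96, 2.75 and 1.60 RPKM against 0.371, 0.667 and 0.556 (-1.36, SE 0.18), and Naaladl1, a peptidase, differed by -0.95 (SE 0.17). Slc5a12, a relative of Slc5a8, stood at 185, 150, 109 and 106 RPKM against 53.8, 86.7 and 58.6 (-1.12, SE 0.18).

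Water and bicarbonate handling also held genes of both directions, with 5 of 19 higher and 3 lower, beside 1.29% and 0.883% of all genes. Aqp8, Car4 and Guca2a are counted both here and in the distal list. The sodium-bicarbonate cotransporter gene Slc4a7 stood at 32.0, 17.6, 23.0 and 46.3 RPKM in the low libraries and 122, 63.5 and 96.2 in the high ones (1.74, SE 0.32), and the carbonic anhydrase Car9 differed by 1.17 (SE 0.17). The water channel Aqp1 stood at 74.3, 83.4, 70.3 and 49.0 RPKM against 24.0, 34.4 and 36.5 (-1.13, SE 0.21), and Guca2a, the gene of the gut hormone guanylin, differed by -0.76 (SE 0.25), or -0.51 without Nlrc4-T337S replicate 2. Slc23a1, the apical vitamin C transporter, stood at 33.1, 46.3, 38.9 and 35.7 RPKM against 14.9, 16.4 and 18.8 (-1.17, SE 0.14), with no overlap. Ada, an adenosine deaminase abundant in the upper gut and at villus tips, stood at 1296, 1306, 1284 and 1419 RPKM against 2212, 2347 and 2346 (0.80, SE 0.12).

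The remaining large differences covered proteins of varied roles. Ugt2b38, a glucuronosyltransferase, stood at 1.93, 1.29, 1.93 and 2.0 RPKM in the low libraries and 28.1, 15.1 and 23.0 in the high ones (3.31, SE 0.21). Slc16a9, of the monocarboxylate carrier family, stood at 3.53, 0.621, 4.71 and 8.30 RPKM against 34.5, 14.8 and 41.8 (3.12, SE 0.48). Both separated fully. Tnni1, a troponin of slow skeletal muscle, differed by 2.71 (SE 0.28), Asb11 by 2.65 (SE 0.30), the carboxylesterase gene Ces2b by 2.61 (SE 0.23) and Otop3, a proton channel of the otopetrin family, by 2.29 (SE 0.17). The larger negative differences were those of the transcription factor Osr2 (-1.60, SE 0.36), Bcl2l15 (-1.51, SE 0.30), the eosinophil chemokine Ccl24 (-1.36, SE 0.22), the myelin protein gene Pmp22 (-1.35, SE 0.41), the sialic acid lyase gene Npl (-1.31, SE 0.16) and Clca4a (-1.28, SE 0.36). Without Nlrc4-T337S replicate 3, Pmp22 differed by -0.81 and Clca4a by -0.80. Those of the gut hormone gene Nts (-1.22, SE 0.28), Tmigd1 (-1.13, SE 0.23) and Tnfaip8l2, an inhibitor of immune activation (-1.07, SE 0.23), followed. Solute carriers were frequent among the genes of the split. Of 223 compared genes with an Slc symbol, 15 (6.73%) were higher and 6 (2.69%) lower, beside 1.29% and 0.883% of all genes.

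**Figure D3:**
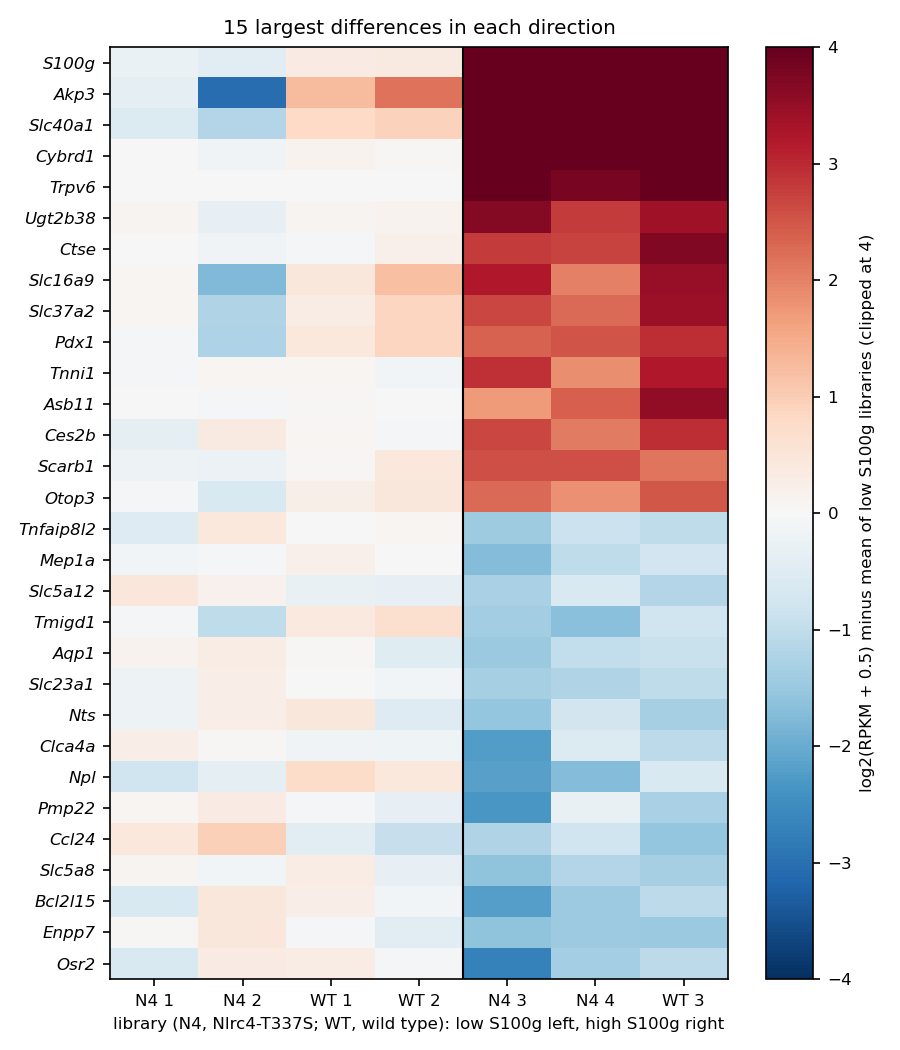
Each library's log2(RPKM + 0.5) minus the mean of the 4 low libraries for the 15 largest higher and 15 largest lower named genes; colour runs from -4 to 4 and larger values are clipped. The top block is red in all 3 high libraries and the bottom block blue, while in the low libraries Akp3, Slc16a9, Slc37a2 and Pdx1 are bluest in Nlrc4-T337S replicate 2.

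Cell type markers were compared beside these differences, because a scraping can hold different mixtures of cells. In the enterocyte list 1 of 21 genes was higher (Alpi) and 4 were lower (Dpp4, Sis, Mep1a and Slc15a1), and the summed level was 20924 to 27465 RPKM in the low libraries and 18945 to 22527 in the high ones. In the Brunner gland and gastric list only Ctse passed the expression filter. Ctse (chromosome 1, 133534883 to 133572080), the aspartic protease cathepsin E of stomach and upper gut, stood at 0.696, 0.605, 0.666 and 0.899 RPKM in the low libraries and 7.96, 7.35 and 15.4 in the high ones (3.15, SE 0.18). The other 13 members summed to 0.265 to 0.999 RPKM in the low libraries and 0.688 to 1.33 in the high ones, with Gif and Sox2 at 0 in every library and the gastric mucin Muc5ac at no more than 0.00340. The other gland and stomach transcripts were near 0 in both groups.

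In the pancreatic acinar list Reg1 was the 1 higher gene of 8, at 721, 431, 1265 and 1062 RPKM in the low libraries and 3358, 2253 and 4234 in the high ones (2.13, SE 0.23). Reg1 is also known from small intestinal epithelium, and the 19 members other than Reg1 and Zg16 summed to 48.7 to 72.5 RPKM in the low libraries and 39.0 to 77.7 in the high ones. The Paneth cell list had 0 of 16 genes higher or lower and a median of -0.36, with sums of 183 to 2049 RPKM in the low libraries and 178 to 1903 in the high ones. By genotype the Paneth sums were 183 and 892 in low and 178 and 362 in high Nlrc4-T337S, and 2049 and 1386 in low and 1903 in high wild type. The stem cell list had 1 of 7 higher (Rnf43, 0.79) and sums of 12.4 to 48.3 and 14.3 to 46.6 RPKM. The proliferation list had 1 of 19 higher, Rrm2 (1.60, SE 0.27), with sums of 73.5 to 114 and 75.6 to 118.

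Secretory lists held few called genes. Goblet cells had 1 of 12 lower (Guca2a), enteroendocrine cells 1 of 15 higher (Pyy, 0.87, and 0.54 without wild-type replicate 3) and 1 lower (Nts), and tuft cells 0 of 7. Their sums overlapped, at 8059 to 10650 RPKM in the low libraries and 6347 to 9632 in the high ones for goblet cells, 327 to 378 and 268 to 383 for enteroendocrine cells, and 21.5 to 34.3 and 20.7 to 33.2 for tuft cells.

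Lists of the tissue beneath the epithelium were lower on balance, with few genes called. B cell and plasma cell genes had 1 of 10 lower (Tnfrsf17, a plasma cell receptor, -0.66, SE 0.16) and a median of -0.71, with sums of 149 to 729 RPKM in the low libraries and 109 to 306 in the high ones. The macrophage, dendritic cell and neutrophil list had 0 of 12 called and a median of -0.51 (sums 44.1 to 164 and 31.4 to 91.1), fibroblast and endothelium 0 of 6 and -0.49 (6.33 to 28.8 and 5.72 to 14.2), and smooth muscle 0 of 5 and -0.43 (23.3 to 40.7 and 22.3 to 27.8). All 10, 12 and 6 differences of the B cell, macrophage and fibroblast lists were below 0. T and NK lymphocyte genes, intraepithelial ones included, had 0 of 19 called and a median of -0.01 (484 to 731 and 518 to 750.3), and the erythrocyte list 0 of 4 and -0.18. The part of these lists in the calcium, iron and peptide results was not tested.

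**Figure D4:**
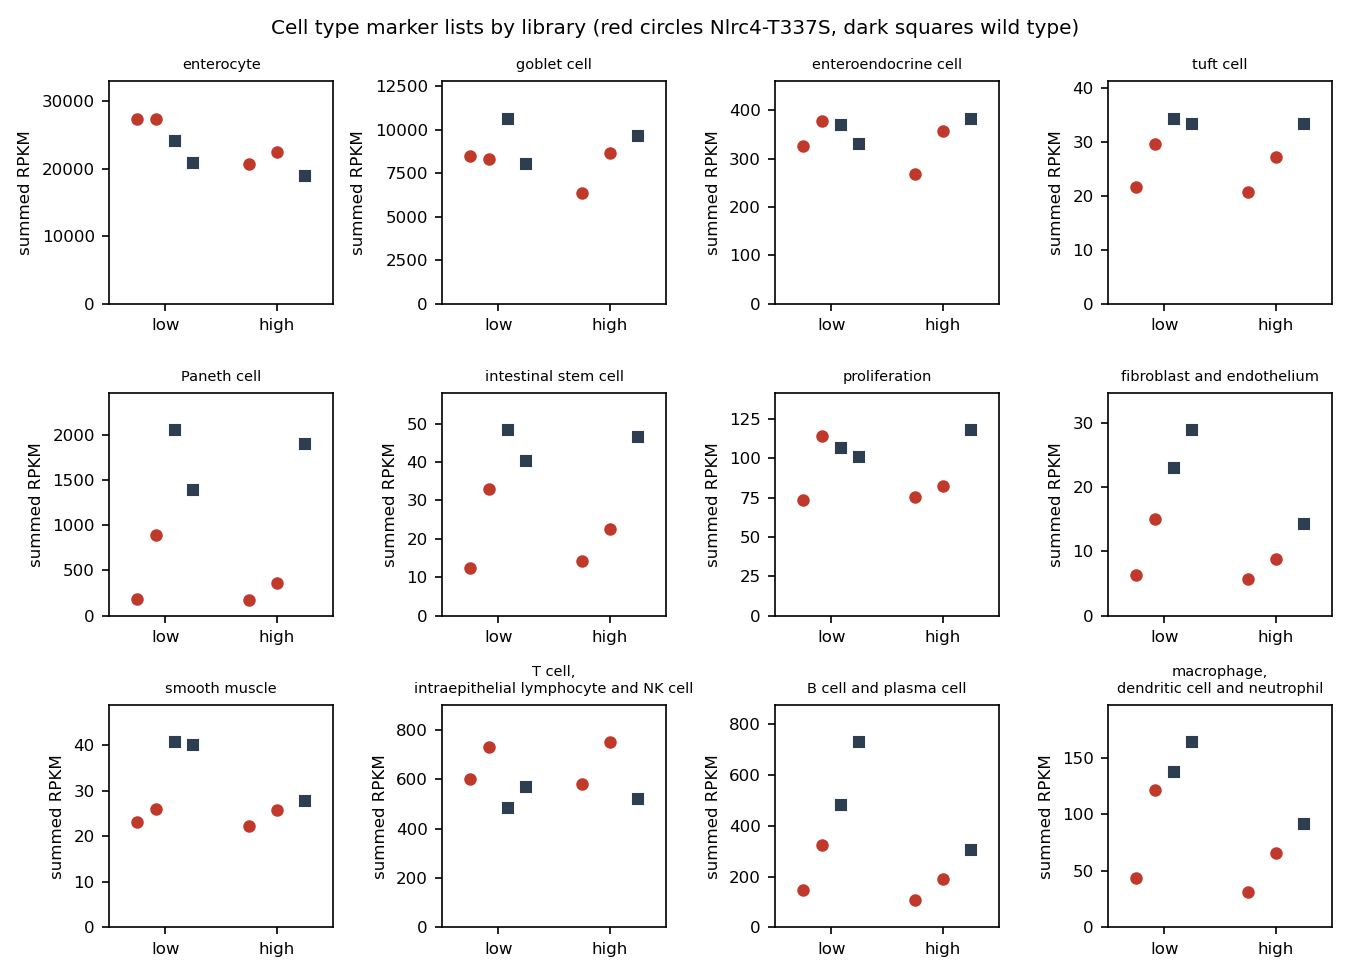
Summed RPKM of 12 cell type marker lists in each library, low group left and high group right; red circles are Nlrc4-T337S and dark squares wild type, and every axis starts at 0. The group ranges overlap in every panel, and the B cell and macrophage sums of each genotype's high libraries are at or below those of its replicate 2 in the low group. Beside low Nlrc4-T337S replicate 1 the order is mixed. Its B cell and macrophage sums are 149 and 44.1 RPKM, those of high replicate 3 are 109 and 31.4, and those of high replicate 4 are 189 and 65.6.

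Other programmes were level across the split. Among 18 circadian clock genes 0 were higher or lower (median -0.09), and the same held for 15 immediate early and heat shock genes (-0.11), 19 endoplasmic reticulum chaperones (-0.07) and 18 mitochondrial oxidative phosphorylation genes (-0.03). In the MHC class II and interferon-gamma list Ubd alone was lower (-0.65, SE 0.26) of 16, and in the antimicrobial list Reg3b (-0.65, SE 0.21) and Reg3g (-0.92, SE 0.36; -0.51 without Nlrc4-T337S replicate 4) were lower of 8, as close copies whose reads may be shared. With no genotype term Ubd differed by 0.01 and Reg3b by -1.04.

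Genotype was then tested with the split as a term, using limma with Benjamini-Hochberg adjustment over the 10987 genes. At an adjusted p under 0.05, 43 genes (0.391%) were higher and 105 (0.956%) lower in Nlrc4-T337S. These counts rested on single libraries. They were 92 and 1299 without Nlrc4-T337S replicate 2, 26 and 39 without replicate 3, and 9 and 6, 12 and 16, and 12 and 33 without wild-type replicates 1, 2 and 3. Among the markers, Slc40a1 (log2 difference, Nlrc4-T337S minus wild type, -1.04, limma adjusted p = 0.142) and Akp3 (-2.38, 0.130) did not pass. No genotype test is given for S100g, whose values made the split, or for Trpv6 and Cybrd1, which passed the expression filter only through the high libraries. Of the 142 genes higher across the split, 7 fell in Nlrc4-T337S by this test and 0 rose. These were Nr0b2 (-1.25, SE 0.15, limma adjusted p = 0.0111), Acsl6, Cers4, Gjb1, Opn3, Ppic and Tspan12, the last 6 chosen after their values were seen. Of the 97 lower genes, 8 fell and 2 rose. Over all genes, 0.956% fell and 0.391% rose. The called genes were picked by separation within each genotype in these same libraries, so a link between genotype and split was not tested by these counts. Ubd, a ubiquitin-like modifier induced by interferon-gamma, rose by 4.0 (SE 0.26, limma adjusted p = 0.00323) and Reg3b, a bactericidal lectin, fell by 2.31 (SE 0.21, limma adjusted p = 0.00673) on the log2 scale.

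The order of the genotypes within the low libraries is described for the called genes, which were picked using these same values. Both low Nlrc4-T337S libraries lay below both low wild-type libraries for 94 of the 142 genes (66.2%), beside 4455 of all 10987 genes (40.5%), and above them for 5 of the 142, beside 1140 (10.4%) of all. The 97 genes lower across the split leaned the other way, with both libraries below for 23 (23.7%) and above for 31. Slc40a1, Akp3, Pdx1, Slc11a2, Fth1 and Nr0b2 were lower in both low Nlrc4-T337S libraries than in both low wild-type libraries, while Atp2b1 overlapped. The 142 also include S100g, which made the groups, and Trpv6 and Cybrd1, which passed the filter only through the high libraries. With 2 libraries against 2, an exact permutation test cannot give a two-sided p under 0.333, so this order was described and not tested gene by gene. The rule set 2 high against 2 low libraries in Nlrc4-T337S and 1 against 2 in wild type. The shares of called genes can therefore come in part from that choice, and no link between genotype and split is drawn from them. In the high libraries the corresponding comparison has 1 wild-type library.

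Whether the split differed in size between the genotypes was tested as an interaction, which rests on a single high wild-type library. Of 10987 genes 7 (0.0637%) passed at a limma adjusted p under 0.05, and 284 had an unadjusted p under 0.05. Without Nlrc4-T337S replicate 3 or 4, or wild-type replicate 1 or 2, 0 genes passed (limma; 473, 418, 207 and 137 genes had an unadjusted p under 0.05). All 7 were small RNA gene models: Vaultrc5, a vault RNA, and Gm22109, Gm22291, Gm23284, Gm25018, Gm25212 and Gm26391, which had the same value as each other in every library and so count as a single measurement. No interaction is given for S100g, Trpv6 and Cybrd1, for the reasons stated for genotype. None of the other calcium, iron, phosphatase, bile acid, sugar, amino acid or fat genes passed. With a single high wild-type library, this does not show that their differences were equal in the genotypes. Slc40a1 had an interaction of 1.72 on the log2 scale (limma adjusted p = 0.831), and Akp3 one of 2.68 (SE 1.19, limma adjusted p = 1.00).

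**Figure D5:**
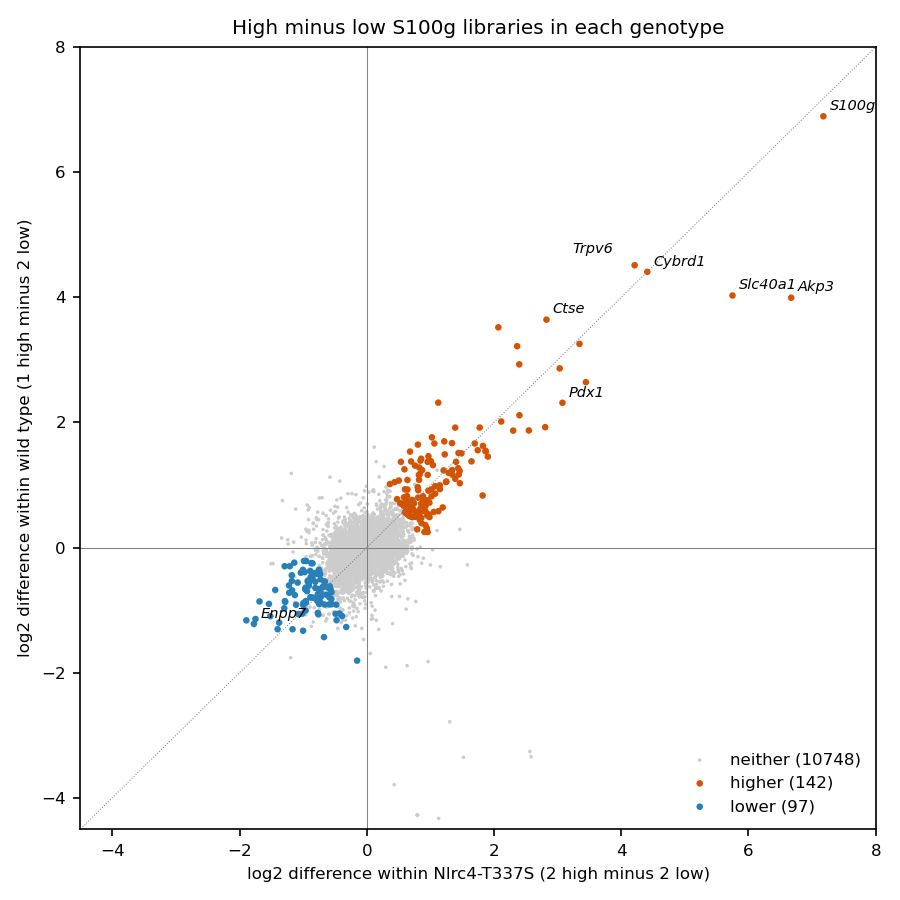
High-minus-low difference on the log2(RPKM + 0.5) scale within Nlrc4-T337S (2 high against 2 low libraries, horizontal) and within wild type (1 high against 2 low, vertical) for 10987 genes; orange, 142 genes called higher; blue, 97 called lower; gray, the rest; the dotted line marks equal differences. S100g, Trpv6, Cybrd1, Slc40a1 and Akp3 lie furthest to the upper right, with Slc40a1 and Akp3 below the line.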

How the data were processed

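RNA was measured in 7 libraries of duodenal scrapings, 4 from Nlrc4-T337S and 3 from wild-type mice, each placed in its genotype from the characteristics given for it; numbers of replicates only name libraries, in accession order. Libraries were made with the TruSeq RNA kit named in the labels' protocols, whose reads carry no strand. Reads were mapped to mm9 with TopHat 2.1.0 and the authors computed RPKM with Partek 6.16.0606; both come from the file headers, and TopHat2 2.1 from the submitters' processing notes. Gene models and the handling of reads with several matches were not given in the sources used here. The authors deposited the count of quality-passing reads of each library. They also deposited the fraction of these reads that mapped, under a percent heading, and it is given here as a percent. RPKM values are no counts and were not modelled as such; depth was judged from those read numbers.

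From the deposited RPKM, log2(RPKM + 0.5) was computed for the 10987 genes whose mean RPKM reached 0.5. Libraries with S100g at 100 RPKM or more were set against the others by limma 3.58.1 (R 4.3.3), fitted with a mean-variance trend and a genotype term. The split used these same values, so its coefficient and SE are given without a p. A gene was called higher or lower when it differed 1.5-fold and the libraries separated within each genotype. Genotype and its interaction with the split were tested two-sided with Benjamini-Hochberg adjustment at 0.05. Fold changes on this scale understate those of genes near 0. The steps were tested on simulated data.

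The members and the 40 gene lists were chosen with earlier results of these data known, and so support nothing by themselves. Genes were named by 3 rules. The 5 markers were always named. Up to 4 called members of each list were named, those with the largest differences, or the 2 largest as values where none was called. Over all genes, the 15 largest called differences in each direction were named among genes averaging 1 RPKM or more in the higher group, leaving out predicted genes, small RNAs and receptor segments. Members of the calcium, iron, phosphatase, bile acid, sugar, amino acid and fat lists are given by value whatever their size. Any other gene was chosen after its values were seen, and is marked so. Gene positions are those of an mm9 annotation, joined by symbol.

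Alternatives were pseudocounts of 0.1 and 1, no filter or a minimum mean RPKM of 2, equal sums, median-of-ratios or quantile scaling, a 2-fold or no size threshold, no genotype term, no split term, each genotype alone, robust moderation, array weights and leaving out each library; list medians without the 5 markers were added after seeing the data. Plots used matplotlib 3.10.9 (Python 3.11.15).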

Additional observations from a re-analysis of the deposited data

Results flagged for a closer look

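Over the named genes, single libraries stood far from the other 3 of a group of 4 in 6 of the 93 Nlrc4-T337S and 93 low-S100g groups examined, by Dixon's criterion, which chance alone meets in about 5% of groups. Among Nlrc4-T337S libraries, Tmprss15, which encodes enteropeptidase, was at 48.6 RPKM in replicate 2 and 147 to 154 in the others. Defa20, a Paneth cell defensin with close copies, was at 13.0 RPKM in the same library and 0.392 to 2.28 in the others. Among low-S100g libraries, the peptidase gene Dpp4 was at 305 RPKM in Nlrc4-T337S replicate 1 and 234 to 244 in the others. The elongase gene Elovl6 was at 16.9 RPKM in wild-type replicate 2 and 13.4 to 13.9 in the others, and Ada at 1419 RPKM there and 1284 to 1306 in the others. Ugt2b38, a glucuronosyltransferase gene, was at 1.29 RPKM in Nlrc4-T337S replicate 2 and 1.93 to 2.0 in the others.

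The split differed between genotypes, by limma's interaction test with Benjamini-Hochberg adjustment, for Vaultrc5 (log2 difference of differences 5.46) and for Gm22109, Gm22291, Gm23284, Gm25018, Gm25212 and Gm26391 (5.07 each, from identical values). The test rests on 1 high wild-type library. Without Nlrc4-T337S replicate 3 or 4, or wild-type replicate 1 or 2, 0 genes passed (limma; 473, 418, 207 and 137 had an unadjusted p under 0.05), and 0 passed with quantile normalization (436 unadjusted). Gm22109 stood at 1.17 and 0.435 RPKM in low Nlrc4-T337S, 11.7 and 12.3 in low wild type, 2.24 and 1.22 in high Nlrc4-T337S and 0.144 in high wild type.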

How the results depend on the processing

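Over the alternatives run, all 142 higher genes that passed each filter kept their direction, and so did the 97 lower genes, apart from Ubd with no genotype term (0.014). For most alternatives this was fixed in advance, because the rule had already separated these genes within each genotype. Only the scalings and the fit with no genotype term could have changed a direction. The higher and lower counts were 62 and 18 at a 2-fold threshold and 784 and 1103 with no size threshold; the lower count was 180 within Nlrc4-T337S alone and 282 within wild type alone. Leaving out each library gave 137 to 212 higher and 85 to 272 lower genes.

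The genotype counts, 43 higher and 105 lower, moved most. They were 169 and 1530 with array weights and 1 and 4 with no filter. The higher count was 97 with median-of-ratios scaling and 103 with quantile normalization, and the lower count 55 at a mean RPKM of at least 2 and 65 with no split term. Leaving out each library gave 9 to 92 and 6 to 1299. The interaction count of 7 was 19 with no filter, 0 with quantile normalization (limma; 436 genes had an unadjusted p under 0.05) and 0 to 10 without each library (137 to 565 unadjusted); without wild-type replicate 3 it could not be estimated. The cause was not tested.

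The calcium median was 0.22 with no genotype term, 0.31 within Nlrc4-T337S alone and 0.68 within wild type alone. The iron median was 0.57 within wild type. Without the 5 markers, an alternative chosen after seeing the data, the calcium median was 0.17, the iron median 0.60 and the phosphatase median 0.10. The bile acid median was 0.058 with no genotype term, 0.19 with quantile normalization, 0.18 with equal sums and 0.19 within wild type. The sugar median was -0.19 within Nlrc4-T337S and 0.01 within wild type, the amino acid median -0.21 with equal sums, -0.19 within Nlrc4-T337S and -0.36 within wild type, and the fat median -0.085 with quantile normalization. Leaving out each library gave 0.24 to 0.74 for calcium, 0.65 to 0.78 for iron, 0.10 to 0.23 for phosphatases, 0.037 to 0.16 for bile acid, -0.19 to -0.024 for sugar, -0.27 to -0.19 for amino acid and -0.23 to -0.11 for fat.

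The log2 difference of Trpv6 was 6.53 and 3.41 with pseudocounts of 0.1 and 1, that of Cybrd1 5.87 and 3.61, that of Slc40a1 5.75 within Nlrc4-T337S and 4.03 within wild type, and that of Akp3 3.99 within wild type. Leaving out each library gave 6.83 to 7.24 for S100g, 4.16 to 4.56 for Trpv6, 4.73 to 5.75 for Slc40a1, 4.30 to 4.51 for Cybrd1 and 4.67 to 6.67 for Akp3. No paired analysis was possible because replicate numbers follow accession order and link no libraries across groups.

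With 3 high libraries, 1 of them wild type, the split cannot be told apart from sample order or title numbers. Mapped shares were lower in some high libraries, and depth limits statements on transcripts of a few hundredths RPKM.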

Other observations

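B cell follicle transcripts stood above the floor in 2 of the low libraries. Ms4a1, which encodes the B cell surface protein CD20, was at 1.77 RPKM in Nlrc4-T337S replicate 2 and 2.29 in wild-type replicate 2, and at 0.0284 to 0.164 in the other 5 libraries. Pax5, the B lineage factor, was at 0.271 and 0.371 there and 0 to 0.0215 elsewhere. These libraries lie on the same side of the S100g split and carry different genotypes. The genes were chosen after their values were seen.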
